A study of Drosophila melanogaster with 4 samples.

Results

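The male dosage compensation genes of Drosophila melanogaster are described here across 4 genotypes of Ago2: the noncoding RNA genes roX1 and roX2 and the protein genes msl-1, msl-2, msl-3, mle and mof. These 7 genes, of 13990 in the deposited table, were taken by symbol, and all 7 were found, quantified with status OK in every genotype, and above the filter on low values. A fly male has a lone X chromosome, and its transcription is raised to match that of the paired autosomes. The complex that does this, the male-specific lethal (MSL) complex, is built from the 5 proteins and includes roX RNA, spreads along the X, and acetylates histone H4 there. The product of Ago2 is an Argonaute protein guided by small interfering RNAs, and genetic work in males with weakened roX function has linked that pathway to dosage compensation.

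Messenger RNA was sequenced from adult males, 0 to 16 hr old and grown at 25 °C, that carried the V966M or the 51B allele of Ago2. The V966M heterozygote was V966M / TM3,twi-GFP,Sb,Ser and the V966M homozygote V966M/ V966M. The 51B heterozygote was 51B / TM3, Ser, y+ and the 51B homozygote 51B / 51B. TM3 is a balancer, a rearranged chromosome 3 that suppresses recombination, so within each allele the homozygote and the heterozygote also differ in carrying it. All 4 genotypes have at least 1 mutant copy of Ago2, and no wild-type group was analysed. In lists of 4 unnamed values, the V966M heterozygote comes before its homozygote, and then the 51B heterozygote before its own. Each genotype entered with 1 value per gene and its deposited interval, and with n = 1 no genotypes were tested against each other and no p-value was computed.

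Values are FPKM, fragment numbers scaled by transcript length and by the mapped total, and the depth behind them is unknown because no counts came with them. Among analysed genes averaging at least 5 FPKM, the median half-width of the interval was between 15.8% (51B heterozygote) and 29.3% (51B homozygote) of the value. AGO2 itself was at 150.0 FPKM in V966M heterozygotes and 101 FPKM in V966M homozygotes, and 46.5 FPKM in heterozygotes and 6.33 FPKM in homozygotes of 51B. In the label check for males, the 13 female or ovary markers summed to between 20.8 and 28.2 FPKM per genotype, with 8 to 10 of them below 1 FPKM and none listed at 0. The yolk protein gene Yp1 was between 0.225 and 0.398 FPKM, and Yp3 between 6.34 and 8.89 FPKM. The chorion gene Cp15 was the highest of these markers in 3 genotypes, at 8.77, 10.1, 4.68 and 10.9 FPKM, and its log2 change of 1.06 in 51B met the rule for a call given below, but not after rescaling (0.95).

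roX1 was by far the most abundant member and the one that differed most among genotypes. It makes the longer of the roX RNAs and lies on the X from 3752929 to 3756720 (dm3), a locus of its own of 3792 bases; a later reference annotation gives the gene 5468 exonic bases and lists both roX genes as ncRNA. It was at 113 FPKM (deposited interval 94.9 to 130.2) in V966M heterozygotes and 60.5 FPKM (54.3 to 66.7) in V966M homozygotes, and 66.0 FPKM (60.2 to 71.8) in heterozygotes and 51.8 FPKM (41.5 to 62.2) in homozygotes of 51B. The V966M heterozygote stood above the 3 other genotypes with no overlap of intervals, and those 3 overlapped with each other. This level was 8.98, 5.91, 6.36 and 4.69 times that of the median analysed gene.

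roX2 was close to the median analysed gene, at 0.802 to 0.936 times its level, and its values overlapped in all genotypes. Its RNA can stand in for roX1 in the complex, and its gene lies on the X from 11473089 to 11474467. It was at 11.7 FPKM (8.59 to 14.9) in V966M heterozygotes and 8.87 FPKM (6.80 to 10.9) in V966M homozygotes, and 8.39 FPKM (6.38 to 10.4) in heterozygotes and 8.86 FPKM (5.75 to 12.0) in homozygotes of 51B. The V966M heterozygote was highest by value. The ratio of roX1 to roX2, which no scale between genotypes can move, was 9.59 in V966M heterozygotes and 6.83 in V966M homozygotes, and 7.87 in heterozygotes and 5.85 in homozygotes of 51B. It was lower in the homozygote of each allele, but its bounds, taken from the extremes of both intervals, overlapped throughout, from 6.38 to 15.2 in the V966M heterozygote and from 3.47 to 10.8 in the 51B homozygote.

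The scaffold and the male-limited subunit of the complex were both low. msl-1 encodes the scaffold on which the other proteins assemble and lies on 2L from 18683720 to 18688796. It was at 5.74 FPKM (4.29 to 7.18) in V966M heterozygotes and 3.77 FPKM (3.07 to 4.47) in V966M homozygotes, and 3.70 FPKM (3.04 to 4.35) in heterozygotes and 3.54 FPKM (2.43 to 4.65) in homozygotes of 51B. The V966M heterozygote was highest, and its interval met those of the other genotypes only at their upper ends. msl-2 encodes the RING finger protein whose presence limits the complex to males, and lies on 2L from 3462216 to 3466111. It was at 7.63 FPKM (6.19 to 9.06), 6.42 FPKM (5.39 to 7.45), 5.88 FPKM (5.01 to 6.75) and 6.62 FPKM (4.76 to 8.49), with all intervals overlapping.

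The remaining subunits were mle, an RNA helicase that remodels roX RNA, msl-3, a chromodomain protein of spreading, and mof, the histone acetyltransferase. mle, on 2R from 1862243 to 1868277, was at 13.2 FPKM (11.7 to 14.7) in V966M heterozygotes and 9.78 FPKM (8.87 to 10.7) in V966M homozygotes, and 8.97 FPKM (8.05 to 9.89) in heterozygotes and 8.35 FPKM (6.79 to 9.90) in homozygotes of 51B. Its V966M heterozygote value lay above the others without overlap, as for roX1. msl-3 was at 10.04 FPKM (7.94 to 12.1), 8.89 FPKM (7.48 to 10.3), 8.04 FPKM (6.72 to 9.35) and 9.93 FPKM (7.29 to 12.6), and all intervals overlapped. Its deposited locus, on 3L from 7087918 to 7118623, is shared with form3, so its value depends on how fragments were divided. mof, on the X from 5767868 to 5770884, was at 3.75 FPKM (2.76 to 4.75), 3.37 FPKM (2.70 to 4.04), 3.22 FPKM (2.60 to 3.84) and 4.25 FPKM (2.87 to 5.63), again with overlap throughout, and was the lowest member in every genotype but the 51B homozygote.

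**Figure D1:**
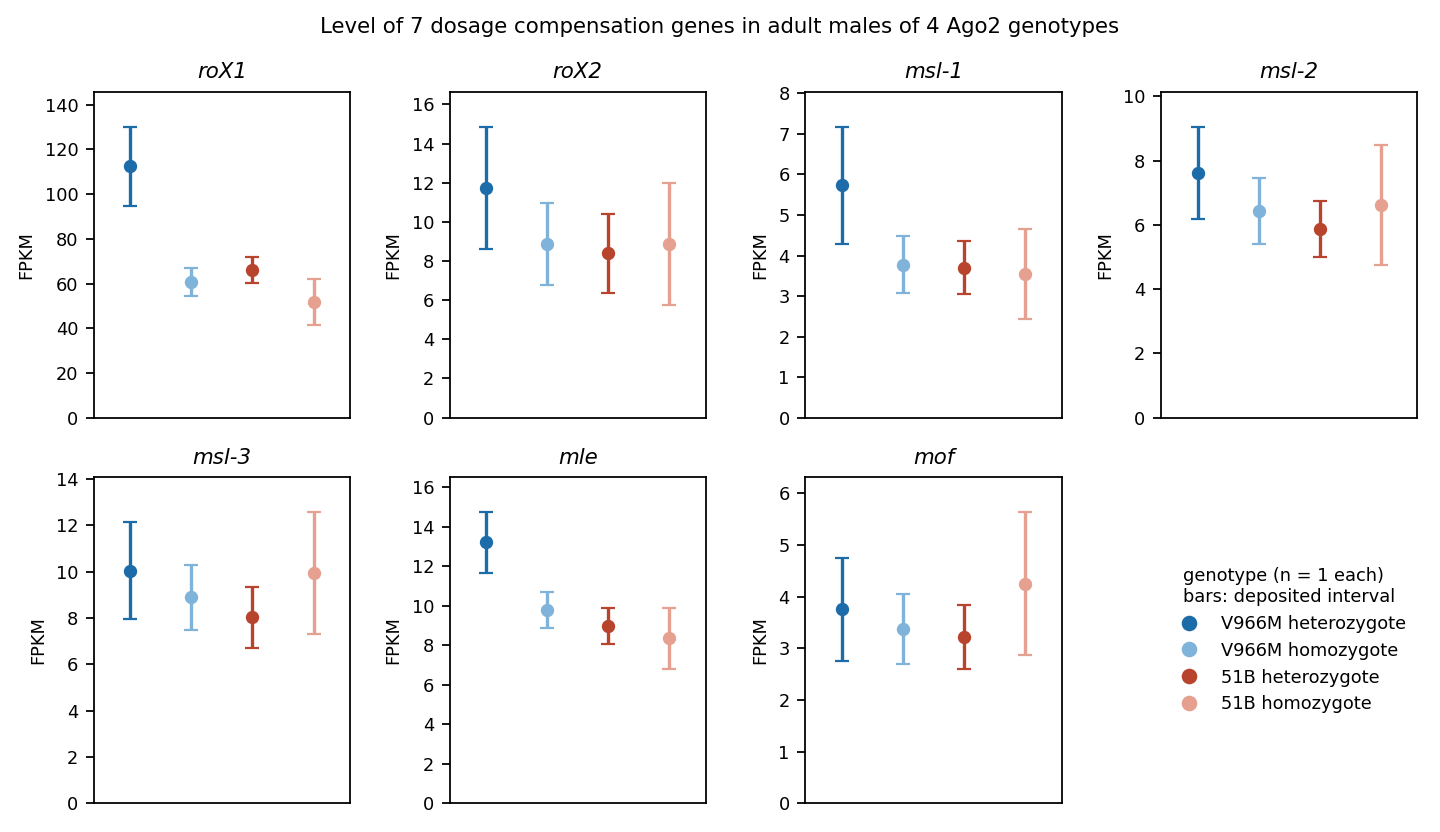
Level in FPKM (y axis, linear and starting at 0, its range differing between panels) of each of the 7 genes in the 4 genotypes, 1 value each, with the deposited interval as the bar. roX1 and mle in the V966M heterozygote, at 113 and 13.2 FPKM, lie above the intervals of the other genotypes; the intervals of the remaining genes overlap.

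Within every genotype roX1 came first, with no overlap with the next gene. The places behind it were held by mle, roX2 and msl-3, whose intervals overlapped with their neighbours in the order in all 4 genotypes. msl-2 followed, and msl-1 and mof came last, in that order except in the 51B homozygote, where mof stood above msl-1 with overlapping intervals. msl-2 and msl-1 were separated by their intervals in 3 genotypes and overlapped in the V966M heterozygote. The msl-2 to msl-1 ratio was 1.33, 1.70, 1.59 and 1.87, and its bounds in the 4 genotypes overlapped.

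In V966M, the homozygote had a lower roX1 level than the heterozygote, and none of the 7 genes passed the threshold for a call. A gene was called where log2((FPKM + 1)/(FPKM + 1)) was at least 1 in size, a 2-fold change on a scale that understates changes of low genes, and the deposited intervals did not overlap. The roX1 change was -0.88, a level 1.86-fold lower in the homozygote. A more negative change was seen in 0.708% of the 10872 analysed genes and in 0.170% of the 1762 analysed X genes. Calls made up 0.414% of all analysed genes in this comparison. Intervals alone were apart for roX1 and mle (2 of 7), against 8.49% of all analysed genes.

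Over all genes the V966M homozygote lay below its heterozygote, with a median log2 change of -0.25, and 54.4% of analysed genes were highest in that heterozygote. The members have to be read against that shift. Rescaling, in which each genotype is divided by the median over genes of its ratio to the geometric mean of all 4, took the median of all genes to -0.00. On this scale roX1 was at -0.61 with intervals still apart, which held for 1.93% of all analysed genes, and mle was at -0.14 with overlapping intervals. As deposited, the other changes were -0.37 for roX2, -0.50 for msl-1, -0.40 for mle, -0.22 for msl-2, -0.16 for msl-3 and -0.12 for mof, with a median over the 7 of -0.37. Rescaled, msl-2 (0.02), msl-3 (0.09) and mof (0.09) were above 0, roX2 (-0.12) and msl-1 (-0.27) stayed below it, and the median was -0.12.

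In 51B, where the homozygote had the lowest AGO2 level, none of the 7 genes was called, in a comparison where 2.81% of all analysed genes were. roX1 had a log2 change of -0.34, against a median of 0.07 over all genes, and its intervals in heterozygote and homozygote overlapped slightly. Of all analysed genes 11.5%, and of X genes 7.21%, had a more negative change. Rescaled, roX1 was at -0.47 and its intervals were apart, as were those of 11.6% of all analysed genes. The protein genes went from -0.09 for mle and -0.05 for msl-1 to 0.15 for msl-2, 0.27 for msl-3 and 0.32 for mof, and roX2 was at 0.07 (rescaled -0.04). The median over the 7 was 0.07, the same as over all genes.

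Between the stocks at matched zygosity, no member was called either. The heterozygotes, where only the allele and the balancer differ by label, gave roX1 a log2 difference of 0.76 (V966M over 51B), msl-1 0.52, mle 0.51, roX2 0.44, msl-2 0.33, msl-3 0.29 and mof 0.17, beside a median of 0.26 over all genes. Intervals were apart for roX1 and mle, as for 21% of all analysed genes, and calls made up 3.04%. The heterozygotes of different stocks thus differed in roX1 by nearly as much as the V966M homozygote and heterozygote did, and both differences contain the high value of the V966M heterozygote. After rescaling, roX1 was at 0.48 with intervals apart, as for 16% of all analysed genes, mle at 0.25 with overlap, and mof at -0.04. Between homozygotes, the differences ran from -0.27 for mof to 0.22 for roX1, all 7 with overlapping intervals, where 18.2% of all analysed genes were apart and 5.53% called. Each genotype takes part in 2 of these 4 comparisons, so they are not independent of each other.

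**Figure D2:**
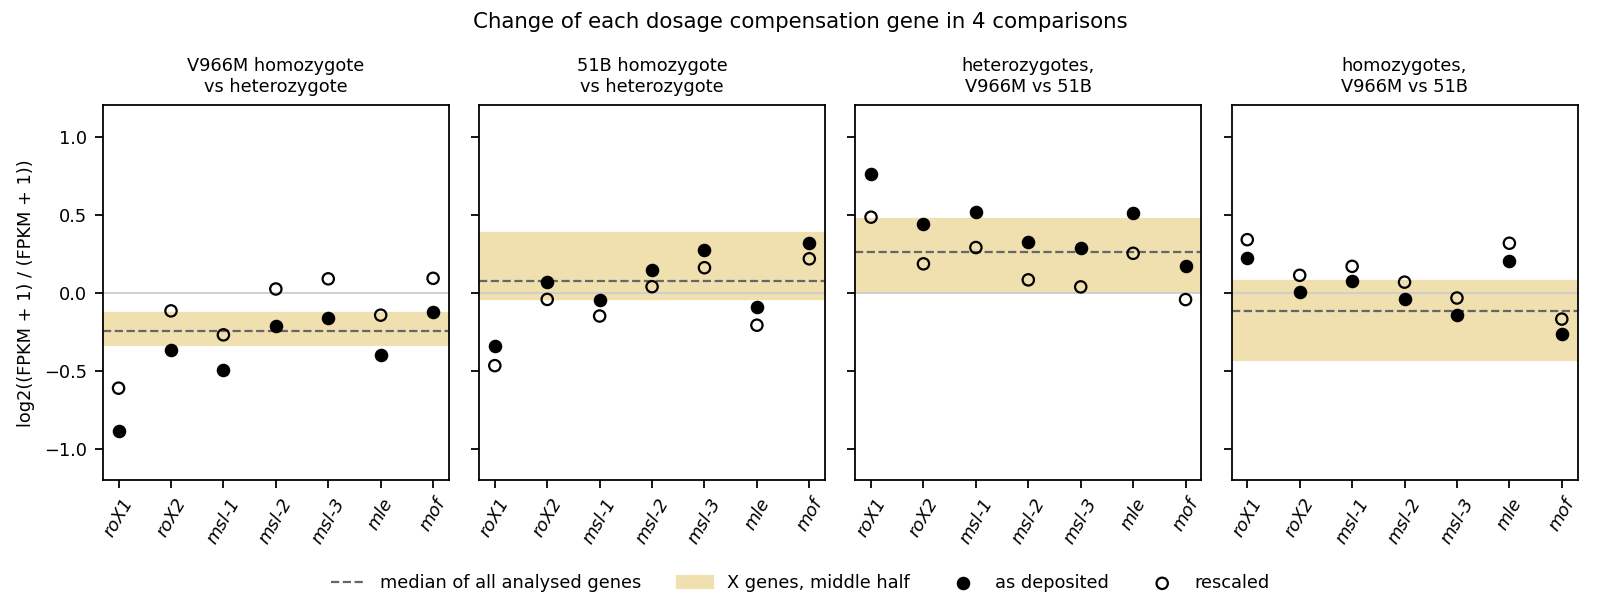
Log2 change (y axis) of each of the 7 genes in the 4 comparisons, as deposited (filled) and rescaled (open), 1 value per genotype; the band spans the quartiles of the analysed X genes and the dashed line is the median of all analysed genes, both as deposited. roX1 lies below the band in both comparisons of homozygote with heterozygote, at -0.88 in V966M and -0.34 in 51B, and above it between heterozygotes, at 0.76, and between homozygotes, at 0.22.

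The members split by how widely they ranged over the genotypes. roX1 spanned 1.10 on the log2(FPKM + 1) scale, more than 90.0% of the 888 analysed genes whose mean level was within 1.5-fold of its own. mle spanned 0.60 (62.5% of its 2624 peers ranged less) and msl-1 0.57 (63.8% of 2066), near the middle. roX2 (0.44, 36.7% of 2578), mof (0.32, 20.1% of 1924), msl-2 (0.33, 19.2% of 2456) and msl-3 (0.29, 12.0% of 2594) ranged less than most genes of their level. Rescaled, msl-2 spanned 0.11, and 3.09% of its peers ranged less. As deposited 6 of the 7 were highest in the V966M heterozygote, as were 54.4% of all analysed genes. Rescaled, 4 of the 7 were (roX1, roX2, msl-1 and mle), and 26.5% of all genes, and the same 4 were lowest in the 51B homozygote, as were 35.1% of all genes.

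The genes most like each member in pattern were ranked by the distance between log2(FPKM + 1) values centred over the 4 genotypes, among genes of at least 5 FPKM. For roX1 the nearest were p120ctn on 2R (distance 0.070), a catenin of cell junctions, MED26 on chromosome 4 (0.076), a Mediator subunit, and Zyx102EF on chromosome 4 (0.076), a zyxin of focal adhesions. MED26 was at 14.9, 7.92, 8.44 and 6.90 FPKM. Of the 48 genes within a distance of 0.2 from roX1, 21 (43.8%) lay on chromosome 4 and 0 on the X, which held 16.5% of the genes ranked. Those 21 were 38.2% of the 55 chromosome 4 genes ranked, and chromosome 4 held 0.690% of the 7966 genes ranked. All patterns come from the same 4 libraries, so this describes those libraries only.

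Over all of chromosome 4, the 74 analysed genes had a median log2 change of -0.63 in V966M and -0.31 in 51B, beside -0.88 and -0.34 for roX1, and of 0.64 between heterozygotes and 0.33 between homozygotes, beside 0.76 and 0.22. Rescaled, the chromosome 4 medians were close in the 2 alleles, at -0.38 in V966M and -0.41 in 51B, beside -0.61 and -0.47 for roX1. Between heterozygotes and between homozygotes they were 0.39 and 0.44 rescaled, beside 0.48 and 0.34 for roX1. Within 0.2 of the other members, chromosome 4 held 5 of 820 genes for mle, 3 of 680 for msl-1, 2 of 1348 for roX2 and 0 for msl-2, msl-3 and mof. Pof, on 2R in a locus shared with another gene, encodes a protein that binds along chromosome 4. It was at 123 FPKM (90.3 to 156), 95.9 FPKM (89.9 to 102), 158 FPKM (151 to 166) and 153 FPKM (117 to 189), highest in the 51B heterozygote. Any relation of Pof to the chromosome 4 values was not tested.

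For the other members the nearest genes were many and close, so their patterns set them apart little. roX2 was nearest to CG3287 (0.014), CG1753 and CG1785, and 1348 genes lay within 0.2. msl-1 was nearest to CG10516 (0.025), CG9029 and CG33129, and mle to the homeobox gene hth (0.013), CG8852 and the acetylcholine receptor gene nAcRalpha-30D. msl-2 was nearest to CG32428 (0.011), CG6665 and the zinc transporter gene ZnT63C. msl-3 was nearest to the tyrosine kinase gene Abl (0.009), sgl and CG4612, and mof to kek1 (0.017), Iap2 and CG7185. Among the members, msl-1 and mle were the closest pair (0.099), followed by msl-2 with msl-3 (0.12) and msl-3 with mof (0.12), and roX1 with mof the farthest (0.89).

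**Figure D3:**
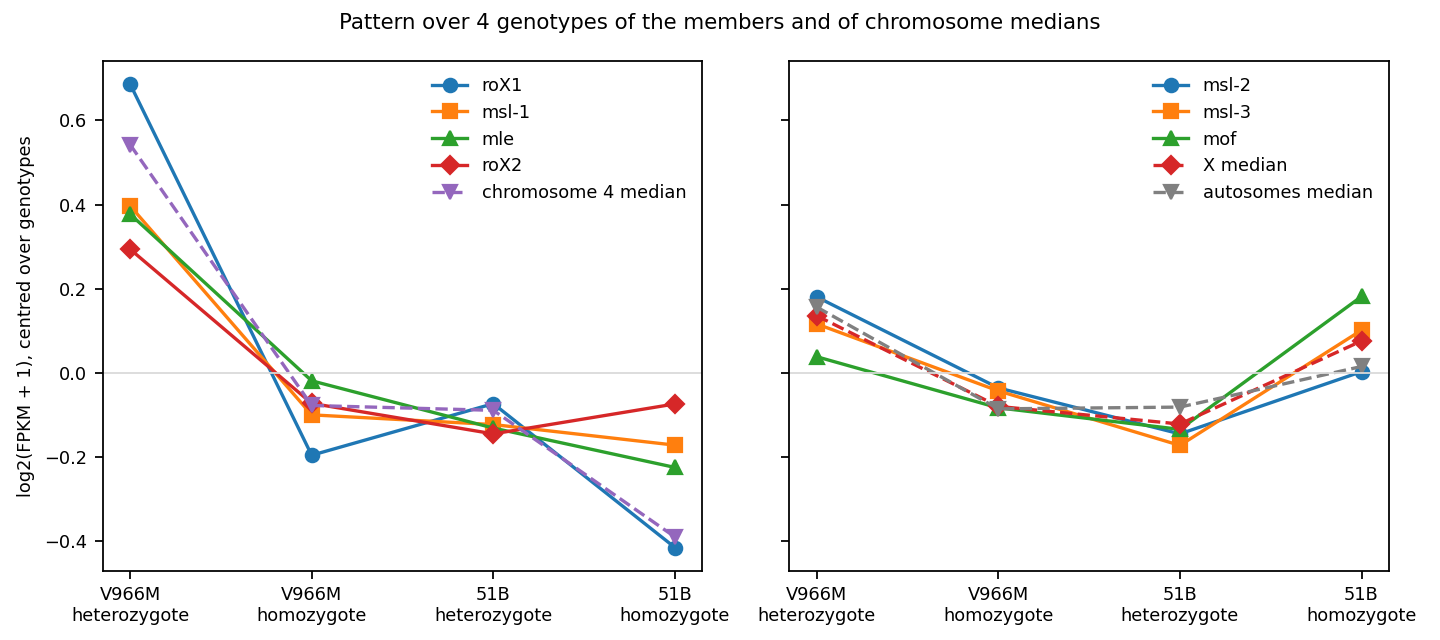
Pattern over the 4 genotypes (x axis) of the 7 genes and of chromosome medians (dashed lines), as log2(FPKM + 1) centred over genotypes (y axis); lines join values of 1 item and imply no order. roX1 goes from 0.69 in the V966M heterozygote to -0.42 in the 51B homozygote and the chromosome 4 median from 0.54 to -0.39, while msl-2, msl-3 and mof stay within 0.2 of 0, as do the X and autosomal medians.

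The complex acts on X genes, so their level was set beside that of autosomal genes. No group without the complex was analysed, so the ratio does not measure its activity. The median of 1762 analysed X genes and that of 8987 genes on 2L, 2R, 3L and 3R were close in every genotype. The V966M heterozygote had 12.3 FPKM on the X and 12.6 FPKM on autosomes, a ratio of 0.976. The ratio was 0.996 in V966M homozygotes (10.3 and 10.3 FPKM), and in 51B it was 1.01 in heterozygotes (10.5 and 10.4 FPKM) and 1.07 in homozygotes (11.8 and 11.0 FPKM). Among genes of at least 5 FPKM the ratios were 0.898, 0.891, 0.884 and 0.965, so the 51B homozygote was again highest while the order of the other genotypes turned.

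In terms of change, X genes moved with the autosomes in V966M and lay slightly above them in 51B. In V966M the median log2 change was -0.23 for X genes and -0.25 for autosomal genes, a difference of 0.02. In 51B it was 0.16 for X genes (quartiles -0.04 and 0.38) and 0.06 for autosomal genes (-0.17 and 0.28), a difference of 0.10. The autosomal arms differed from their common median by -0.03 (2L) to 0.01 (3R) in 51B. The X difference in 51B was 0.09 among genes of 1 to 5 FPKM, 0.12 from 5 to 20 FPKM, 0.11 from 20 to 100 FPKM and 0.06 above that. Between heterozygotes X and autosomes differed by 0.01, and between homozygotes by -0.05. These also varied with level. Between heterozygotes the difference ran from -0.04 (1 to 5 FPKM) to 0.10 (20 to 100 FPKM), near the 51B value at that level. Between homozygotes it ran from -0.09 (1 to 5 FPKM) to 0.08 (above 100 FPKM). Genes are not replicates, so these medians carry no test.

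Calls on the X are given beside those on autosomes, with no test of the difference. In V966M 2 were higher and 0 lower, 0.114% of X genes beside 0.412% of autosomal genes. In 51B 18 were higher and 7 lower, 1.42% beside 3.12%. Between heterozygotes 32 were higher in V966M and 5 lower, 2.10% beside 3.14%, and between homozygotes 35 and 49, 4.77% beside 5.73%. Relative to the X median, roX1 was at -0.66 in V966M and -0.51 in 51B, roX2 at -0.14 and -0.09, and mof at 0.11 and 0.15. Tissue markers also differed between genotypes. The 17 testis genes, of a germ line that for the most part works without the MSL complex, summed to 2229 and 1842 FPKM in the V966M heterozygote and homozygote and to 2964 and 3487 FPKM in the 51B pair, with 2 or 3 genes below 1 FPKM and 0 at 0. Rescaled, the 4 sums were 1969, 1969, 3179 and 3424 FPKM, equal as printed in the V966M pair. The sums are dominated by the most abundant genes. The median log2 change of the 14 analysed testis genes was -0.24 in V966M and 0.03 in 51B, beside -0.25 and 0.07 over all genes. Rescaled, their median in 51B was -0.07, so the higher sum in that homozygote was not shared by the list as a whole. Of the testis genes, Mst98Cb and betaTub85D were called lower in the V966M than in the 51B homozygote, at log2 differences of -1.37 and -1.03, and after rescaling Mst98Cb alone (-1.25). The 9 accessory gland genes summed to 1744, 1407, 1325 and 956 FPKM, with 0 below 1 FPKM, and rescaled to 1541, 1503, 1421 and 939 FPKM. These sums include Acp36DE, which had failed quantification in the V966M heterozygote. The median log2 change of the 8 analysed accessory gland genes was -0.50 in V966M and -0.50 in 51B. Rescaled, it was -0.23 and -0.63. The testis sums include fzo, which had failed in the V966M heterozygote and the 51B homozygote. Their part in the member and X values was not tested, and in whole males fewer cells of a type and less RNA per cell cannot be told apart.

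**Figure D4:**
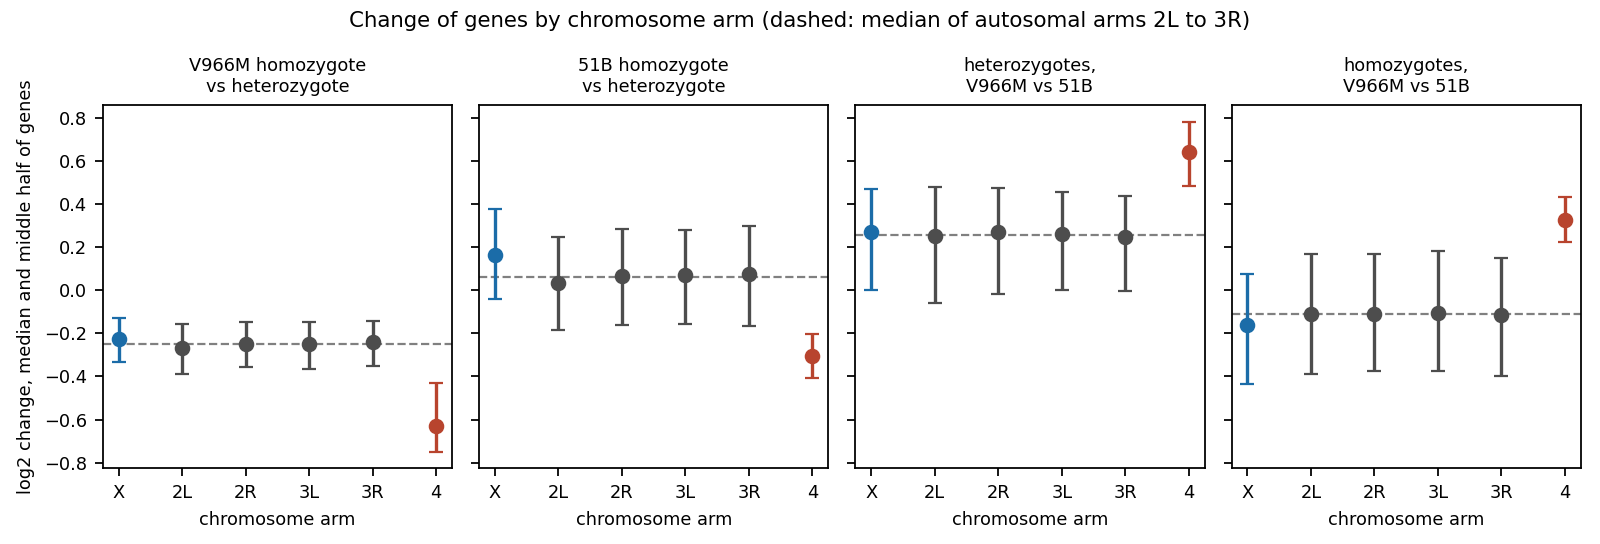
Median log2 change of analysed genes on each chromosome arm (points) with the quartiles as bars, in the 4 comparisons; the dashed line is the median over 2L, 2R, 3L and 3R. The X lies 0.10 above that line in 51B and within 0.05 of it elsewhere, and chromosome 4 lies apart in all 4, at -0.63, -0.31, 0.64 and 0.33.

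Of the genes beside the roX loci, 0 were called. Over all analysed genes, the share called was 0.414% in V966M, 2.81% in 51B, 3.04% between heterozygotes and 5.53% between homozygotes. The neighbours of roX1, ec and yin, were at 7.32 and 5.69 FPKM in the V966M heterozygote and 7.57 and 5.17 FPKM in the V966M homozygote, log2 changes of 0.04 and -0.12, and 0.13 and -0.01 in 51B. Next to roX2, CG11695 was at 5.66 FPKM in heterozygotes and 9.04 FPKM in homozygotes of 51B, a change of 0.59 that was not called, while nod had failed quantification in every genotype. The 34 analysed X genes within 100 kb of either roX locus had a median change of -0.31 in V966M and 0.05 in 51B, which is -0.08 and -0.11 relative to all X genes, and 0 of them were called. From 100 to 500 kb away, 139 genes differed from all X genes by -0.03 and -0.01. The 439 genes from 500 to 2000 kb differed by -0.00 and 0.00, and the 708 from 2000 to 5000 kb by 0.00 and -0.01. Beyond 5000 kb, 440 genes differed by 0.02 and 0.04. Of the genes beside the other members, 0 were called in any comparison. CG31751, next to msl-1, was at 15.2, 10.5, 11.7 and 9.88 FPKM. Src42A, a tyrosine kinase gene next to mle, was at 16.3, 11.8, 12.2 and 11.7 FPKM. Both were highest in the V966M heterozygote, as were yin, sec5, Pdsw and form3, and 54.4% of all analysed genes. The neighbours ec, CG11695, CG10336, BubR1, CG3033 and CG3016 were highest in other genotypes. The other analysed neighbours, CG10336, sec5, Pdsw, form3, BubR1, CG3033 and CG3016, had log2 changes from -0.38 (form3) to -0.10 (sec5) in V966M and from -0.09 (BubR1) to 0.37 (CG3016) in 51B, while Cpr65Ec and BBS1 beside msl-3 were below the filter on low values.

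Partners of the MSL complex showed no call in any of the 4 comparisons. Of all analysed genes 0.414% were called in V966M, 2.81% in 51B, 3.04% between heterozygotes and 5.53% between homozygotes. At such shares, 0 calls in a short list says little about that list. Of 14 listed, 10 were analysed, since E(bx), Rm62, how and Nup153 had failed quantification in at least 1 genotype. Their median log2 change was -0.33 in V966M and 0.16 in 51B, beside -0.25 and 0.07 over all genes. CG1832, which encodes the zinc finger protein CLAMP that binds the GA repeats where the complex enters the X, was at 24.3, 19.0, 18.9 and 21.2 FPKM. JIL-1, a histone H3 kinase enriched on the male X, was at 25.0, 19.2, 22.4 and 28.4 FPKM. Unr, whose protein represses msl-2 translation in females, was at 46.3, 35.3, 28.7 and 39.1 FPKM, and Top2, a topoisomerase, at 8.82, 6.69, 6.99 and 6.70 FPKM.

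The NSL complex, which also holds the mof protein and acts at promoters of active genes, had 8 of 8 genes analysed and 0 called. Over all analysed genes, the share called ran from 0.414% (V966M) to 5.53% (between homozygotes). Its medians were -0.21 in V966M and 0.19 in 51B. Within an allele the largest change was that of CG4699, its scaffold, with 12.6 FPKM (12.4 to 12.7) in heterozygotes and 17.6 FPKM (15.9 to 19.4) in homozygotes of 51B, a log2 change of 0.45 with intervals apart, as for 12% of all analysed genes. The CG4699 interval in the 51B heterozygote was far narrower than the median half-width in that genotype, 15.8% of the value. Rcd5 went from 16.9 to 22.1 FPKM in the same pair with overlapping intervals. Rcd1 was at 19.8 and 15.5 FPKM in the V966M heterozygote and homozygote. Chro, in a locus on 3L shared with another gene, was at 8.80 and 6.68 FPKM in the same pair.

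Of 10 sex determination genes, 9 were analysed and 0 called, with medians of -0.22 in V966M and 0.05 in 51B. The share of all analysed genes called ran from 0.414% (V966M) to 5.53% (between homozygotes). Sxl, the switch gene whose protein blocks msl-2 in females, was at 37.8, 29.9, 21.8 and 30.6 FPKM. Its homozygote was lower in V966M (log2 change -0.33) and higher in 51B (0.47), with intervals apart in both, as for 8.49% and 12% of all analysed genes. Rescaled, the changes were -0.06 and 0.35, and the intervals overlapped in V966M and stayed apart in 51B. Sxl shares its locus, and gene-level values do not separate its male and female splice forms. dsx, which directs sexual differentiation, was at 26.5, 18.3, 13.8 and 12.7 FPKM, again highest in the V966M heterozygote, in a shared locus, with intervals apart in V966M and overlapping in 51B. The V966M gap was narrow, from 20.6 FPKM (upper bound, homozygote) to 21.3 FPKM (lower bound, heterozygote). Its log2 change there was -0.51 as deposited and -0.25 rescaled, with overlapping intervals once rescaled. fru, of male courtship circuits, was at 14.4, 14.7, 12.9 and 18.5 FPKM, with intervals of 12.3 to 13.5 and 18.3 to 18.8 in 51B. The latter was far narrower than the median half-width in 51B homozygotes, 29.3% of the value. vir, a splicing cofactor of Sxl, was at 5.25, 4.44, 4.16 and 5.84 FPKM, in a locus on 2R shared with another gene.

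Among 8 X genes long studied for dosage compensation, 7 were analysed and 0 called between homozygote and heterozygote of either allele, with medians of -0.34 in V966M and 0.24 in 51B. Of all analysed genes 0.414% were called in V966M, 2.81% in 51B and 3.04% between heterozygotes. RpII215, the largest subunit of RNA polymerase II, was at 12.6 FPKM (10.8 to 14.5) and 20.1 FPKM (13.7 to 26.5) in the 51B heterozygote and homozygote, with overlapping intervals and a log2 change of 0.63. Act5C, a cytoplasmic actin, was at 1486, 1176, 1062 and 1448 FPKM, and Pgd, of the pentose phosphate pathway, at 246, 181, 131 and 142 FPKM. Its partner enzyme gene Zw was at 97.5, 74.5, 71.3 and 80.6 FPKM. The eye pigment gene v was the single call, higher in the V966M than in the 51B heterozygote (7.52 and 3.01 FPKM, log2 difference 1.09), and it was not called after rescaling (0.85).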

How the data were processed

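TopHat and Cufflinks with genome build dm3 were used, per the submitters' processing notes (versions, annotation and strandedness: not given in the sources used here). Per the file headers, the deposited table holds 1 FPKM value, 1 interval of unstated level and 1 status per gene and genotype. The design text states that each genotype was sequenced 2 times; the table holds 1 column per genotype, so n = 1. Loci are dm3, with starts converted to count from 1: of 6662 genes that share no locus and have a reference length, 1180 matched that length if deposited starts counted from 0, and 108 if from 1. The reference annotation is of a later build and was used for names, lengths and gene types only. Z4 was taken as pzg, of which it is a synonym in the RefSeq gene table.

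The 10872 analysed genes had status OK throughout and averaged at least 1 FPKM. A pseudocount of 1 FPKM was used for log2 changes. Calls and medians were computed with Python 3.11.15, numpy 2.4.6 and pandas 2.3.3, and the calling step was tested on simulated data. The 4 rescaling factors were 1.13, 0.936, 0.932 and 1.02 (V966M heterozygote and homozygote, then those of 51B). Named were all 7 members, called list members, up to 4 members of each list of partners, NSL, sex determination and X genes with the largest change within an allele, adjacent genes and the 3 nearest in pattern. CG1832, Yp1, Yp3, and, among adjacent genes, CG11695, CG31751 and Src42A were singled out after their values were seen, as was the count of chromosome 4 genes near roX1. Members and lists were chosen with earlier results of these data known.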

Additional observations from a re-analysis of the deposited data

How the results depend on the processing

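With 1 value per genotype no replicate could be left out. No paired analysis was possible because each genotype has a single column. The count of members called stayed at 0 in all 4 comparisons under rescaling, pseudocounts of 0.1 and 5 FPKM, both other filters on low values, fold alone, genes with a shared locus left out (6 members) and, an alternative added after the data were seen, status not required. Of these, only rescaling could have changed the count. Filters, shared loci and status decide which genes are kept, and all 7 members were kept already. For fold alone and the pseudocounts, the largest log2 ratio without a pseudocount was only -0.89 (roX1 in V966M). A 1.5-fold threshold gave 1 call in V966M and 1 between heterozygotes, roX1 in both, where 3.03% and 13.2% of all analysed genes were called. A mean of at least 5 FPKM left 5 members and moved the X to autosome ratio to 0.891 in V966M homozygotes and, for 51B, to 0.884 in heterozygotes and 0.965 in homozygotes; the cause was not tested. The X minus autosome difference in 51B ranged from 0.07 to 0.12 over 8 alternatives. Rescaling changed the sign of msl-2, msl-3 and mof in V966M, roX2 in 51B, mof between heterozygotes and msl-2 between homozygotes, and never that of roX1. It took the calls over all genes from 45 to 21 in V966M and from 330 to 212 between heterozygotes. Chromosome 4 held 21 of 54 genes near roX1 after rescaling, 2 of 4 within 0.1 and 32 of 164 within 0.3, and the X 0, 0 and 13 of the same, all added after the data were seen.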
